A study of Mus musculus with 20 samples.

Results

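Genes that interferons switch on, together with the machinery that presents peptides on major histocompatibility complex (MHC) class I, were followed in mouse heart RNA. The set was a list of 38 named genes, matched by symbol in GENCODE vM21 (genome build GRCm38) to the Ensembl identifiers of a count table of 55335 genes. All 38 were found. After a filter on low counts 36 of them were among the 14878 genes tested. Oas3, with 3 to 20 counts per library, and Isg15, with 1 to 16, did not pass it and were described but not tested.

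The hearts came from C57BL/6N mice aged 3 to 5 months on the NIH-31 diet, either wild type (WT) or knockout (KO) for OGFOD1, an enzyme known for hydroxylating a ribosomal protein of the small subunit. Mice of both genotypes had carried an osmotic minipump for 2 weeks, delivering vehicle (PBS with sodium ascorbate) or isoproterenol, a beta-adrenergic agonist used to enlarge the heart, in the same vehicle. Each of the 4 groups held 5 libraries of total RNA from powdered whole heart. The labels do not say where the deletion lies, whether KO and WT mice were littermates, or whether the 5 libraries of a group are 5 mice. The spread behind each p-value is therefore that of libraries, and may be technical.

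Total counts were 14609808 to 43671055 per library, of which 55.5% to 61.9% fell on mitochondrial genes. Ogfod1 was at 16.9 to 21.8 CPM (counts scaled to the size of the library) in the 10 WT libraries and at 2.39 to 4.13 CPM in the 10 KO libraries, which matched the labels. The summed CPM of 8 cardiomyocyte markers was 21220 to 34800. KO isoproterenol replicate 5 stood apart in its fibroblast markers, summed to 1992 CPM against at most 949 in the other 19 libraries. WT vehicle replicate 2 had the highest cardiomyocyte sum. WT isoproterenol replicate 1 held 74.7 CPM of 6 B cell markers against at most 16.7 CPM in the other libraries.

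Type I interferons signal through the receptor IFNAR and the kinases JAK1 and TYK2 to the complex ISGF3, which contains STAT2 and IRF9 and binds an interferon-stimulated response element (ISRE) in target promoters. Interferon gamma acts on promoters that hold gamma-activated sites (GAS). The targets include sensors of foreign RNA, proteins that bind or degrade it, guanylate-binding GTPases, the proteasome subunits that replace the constitutive ones, and the peptide transporter, heavy chains and light chain of class I molecules. Most of them are expressed at a low level in resting tissue.

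The promoters of these genes are shown first, since they hold the letters by which the group is usually recognised. RefSeq promoters (GRCm38.p6, 250 bases before to 50 after a start) were matched by symbol for 31 of the 38 genes. The ISRE core was searched as 2 copies of GAAA separated by any 2 bases, and the GAS as TTCNNNGAA, each on both strands. The ISRE core was found in 17 of 31 genes (54.8%), against 3.99% of all 27025 genes in the same table. The GAS was found in 6 of 31 (19.4%), against 9.55% of all genes. In Gbp7, Bst2 and Oas1a both occurred, and in Bst2 the matches overlapped each other.

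A match describes letters and not binding. The windows below mark one core each in capitals, for genes from several roles, 5′ to 3′ on the strand of the gene. Cores on the opposite strand read as TTTC copies.
Ifit3, chr19:34583358-34583397, + strand: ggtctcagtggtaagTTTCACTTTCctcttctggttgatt
Ifit3b, chr19:34607754-34607793, + strand: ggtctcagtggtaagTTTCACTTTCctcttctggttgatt
Ifit3, chr19:34583392-34583431, + strand: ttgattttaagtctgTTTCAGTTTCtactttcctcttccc
Ifit1, chr19:34640770-34640809, + strand: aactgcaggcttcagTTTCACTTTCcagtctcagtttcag
Gbp7, chr3:142530268-142530307, + strand: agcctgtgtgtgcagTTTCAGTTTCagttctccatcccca
Gbp3, chr3:142559984-142560023, + strand: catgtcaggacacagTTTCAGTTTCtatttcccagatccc
Gbp2, chr3:142620589-142620628, + strand: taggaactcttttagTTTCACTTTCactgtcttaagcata
Ddx60, chr8:61928019-61928058, + strand: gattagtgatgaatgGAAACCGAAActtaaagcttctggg
Isg15, chr4:156200872-156200911, - strand: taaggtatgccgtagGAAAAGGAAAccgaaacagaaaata
B2m, chr2:122147533-122147572, + strand: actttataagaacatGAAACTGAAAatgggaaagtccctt

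Ifit3 and Ifit3b, neighbours on chromosome 19, had the same 40 letters around both of their cores, within an identical run of 169 bases between their promoters. The 250 bases before the start of Ifit3 and of Gbp7 are given whole because these genes carried the results below. Capitals mark ISRE cores, and Ifit3 holds 2 where Gbp7 holds 1.
Ifit3, chr19:34583279-34583528, + strand: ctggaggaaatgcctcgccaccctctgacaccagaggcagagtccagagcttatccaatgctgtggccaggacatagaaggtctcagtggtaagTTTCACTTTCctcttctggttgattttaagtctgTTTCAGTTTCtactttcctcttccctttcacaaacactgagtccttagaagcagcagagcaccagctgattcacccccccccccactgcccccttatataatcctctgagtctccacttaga
Gbp7, chr3:142530086-142530335, + strand: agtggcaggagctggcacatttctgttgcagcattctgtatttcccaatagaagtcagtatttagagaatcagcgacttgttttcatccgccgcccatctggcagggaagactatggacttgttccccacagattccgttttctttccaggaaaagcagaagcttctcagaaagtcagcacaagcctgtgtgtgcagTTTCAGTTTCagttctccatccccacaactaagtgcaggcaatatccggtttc

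The ISRE core was absent from the searched windows of Irf9 and Ifi44, and no promoter entry was matched for Oas2, Usp18, Zbp1, Rtp4, Ifi27, Parp9 and Parp14. Under isoproterenol in WT hearts the 15 tested genes with a core had a median log2 fold change of 0.33. The 14 without one had a median of 0.22, and the 7 with no entry 0.30. The 3 medians in KO hearts were −0.01, −0.01 and 0.04. Of the 4 genes that passed in WT (below), 2 held a core and 2 did not.

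The group spanned a wide range of abundance. Per kilobase of exon, B2m, the light chain of class I molecules, had the highest level in WT vehicle hearts, 248 ± 29.6 CPM per kb (SD, n = 5). The heavy chain genes H2-D1, at 23.7 ± 2.05, and H2-K1, at 17.8 ± 1.43, followed, and their SDs did not meet. Psmb10 was next at 6.26 ± 0.466. The lowest were Isg15 (0.242 ± 0.108), Oas1a (0.231 ± 0.0820), Zbp1 (0.0968 ± 0.0478) and Oas3 (0.0440 ± 0.0189), of which Isg15 and Oas1a did not differ beyond their spread. Levels below are CPM after TMM scaling and not per length.

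The question put to the 4 groups was whether hearts without OGFOD1 answer isoproterenol as WT hearts do. In WT hearts 4 of the 36 tested genes rose with isoproterenol and none fell, at a Benjamini-Hochberg adjusted p under 0.05 in edgeR's quasi-likelihood test. These were Ifit3, Gbp7, Ifi44 and Irf9. In KO hearts none rose or fell. Of all tested genes 4.64% rose and 4.12% fell in WT, and 4.75% rose and 4.29% fell in KO.

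Among the 36 genes 34 had a positive log2 fold change in WT, with a median of 0.29, and 18 did in KO, with a median of 0.001. The medians over all tested genes were 0.004 and 0.01. At an unadjusted p under 0.05 the WT comparison held 18 of the 36, all higher, against 11.6% of all genes that were higher at this p. The KO comparison held 3 (Xaf1 and Ifit3 positive, Psmb10 negative), against 23.1% of all genes in either direction. This share counts both directions and is not comparable with the WT share, which counts only higher genes. The genes vary together between libraries, so that these counts are not 36 separate observations.

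**Figure D1:**
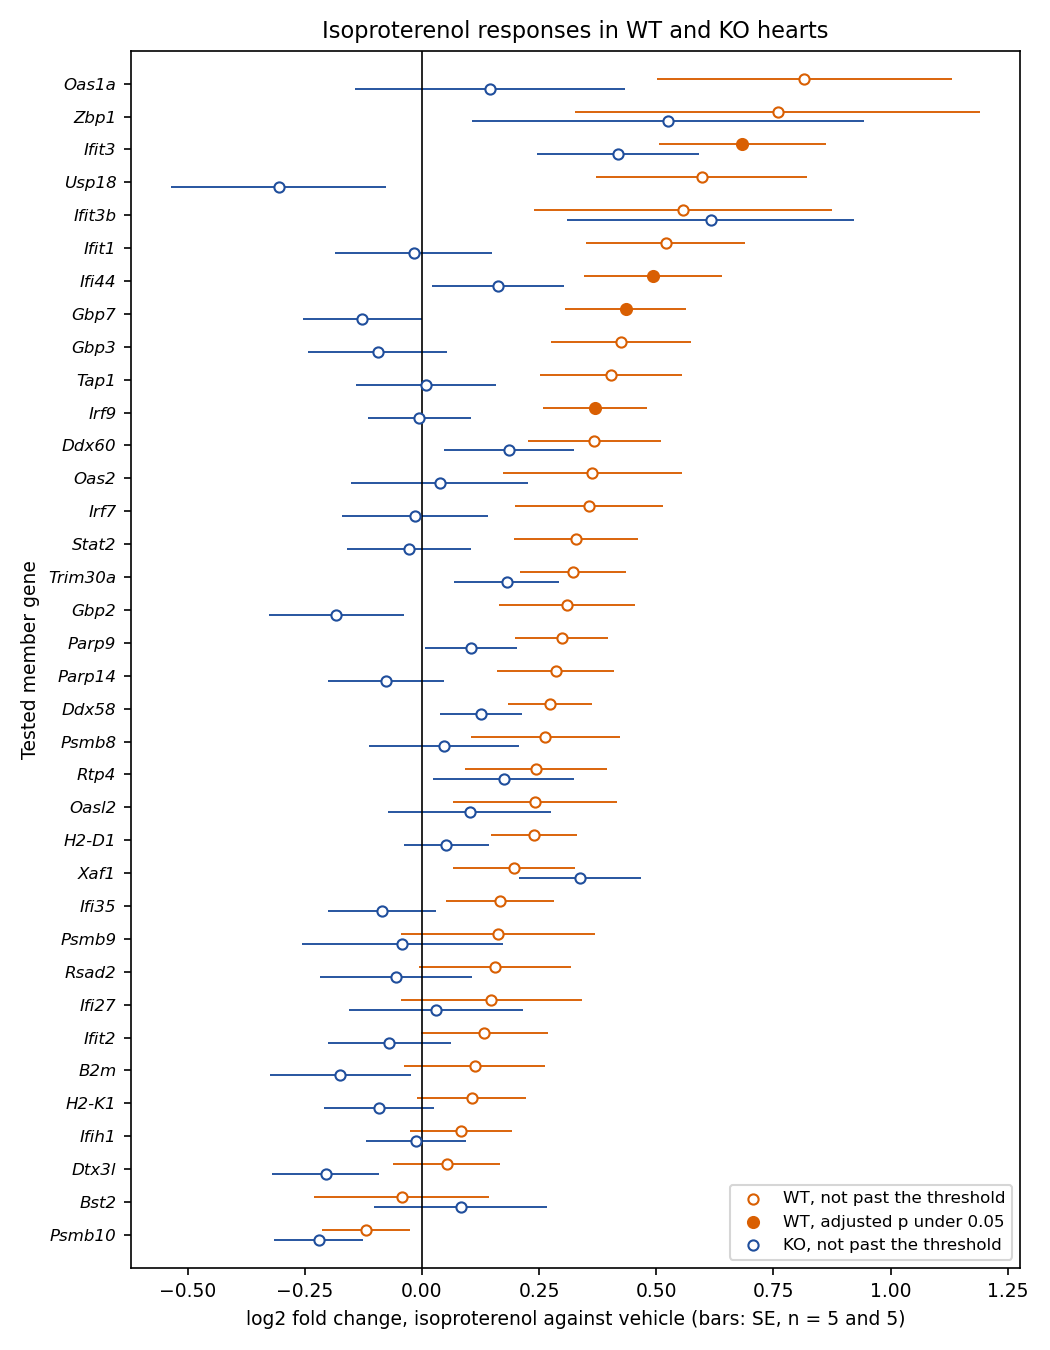
Log2 fold change (x axis) of isoproterenol against vehicle in WT (orange) and KO (blue) hearts for the 36 tested genes (y axis, ordered by the WT value), with SE bars and filled points for an adjusted p under 0.05. Ifit3, Ifi44, Gbp7 and Irf9 are the only filled points, and 34 WT values lie right of 0 against 18 KO values.

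The difference between the responses was tested directly. No gene of the 36 passed for it, and neither did any of the 14878 (0.0% called). The difference, KO minus WT, was negative in 33 of the 36, with a median of −0.22, against a median of 0.003 over all genes. At an unadjusted p under 0.05 the difference held 6 of the 36, all negative, against 3.43% of all genes that were negative at this p. These were Gbp7 (−0.56, SE 0.18), Usp18 (−0.90, SE 0.32), Gbp3 (−0.52, SE 0.21), Irf9 (−0.38, SE 0.16), Gbp2 (−0.49, SE 0.21) and Ifit1 (−0.54, SE 0.24), with edgeR adjusted p from 0.518 to 0.610. A difference between genotypes in this response is therefore not shown for any single gene.

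Averaged over both genotypes, 7 of the 36 rose with isoproterenol, against 9.76% of all genes, and none fell, against 9.07% of all genes. They were Ifit3 (0.55, SE 0.12), Ddx58 (0.20, SE 0.06), Ifi44 (0.33, SE 0.10), Trim30a (0.25, SE 0.08), Xaf1 (0.27, SE 0.09), Parp9 (0.20, SE 0.07) and Ddx60 (0.28, SE 0.10), with edgeR adjusted p from 0.00193 to 0.0484. Gbp7 and Irf9 were not among them.

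Of the transcription factors, Irf9 (ENSMUSG00000002325.15, chr14:55603571-55610030) encodes the DNA-binding part of ISGF3. Its level was 7.39, 7.69, 7.54, 8.60 and 7.82 CPM in WT under vehicle and 11.0, 7.45, 9.76, 11.1 and 11.2 CPM in WT under isoproterenol. KO hearts held 9.34, 7.50, 7.67, 9.87 and 10.3 CPM under vehicle and 8.63, 8.06, 9.11, 10.3 and 8.63 CPM under isoproterenol. WT isoproterenol replicate 2 lay within the vehicle range and the other 4 lay above it, while the KO groups overlapped throughout. Irf9 rose by 0.37 (SE 0.11, edgeR adjusted p = 0.0337) in WT and had a log2 fold change of −0.01 (SE 0.11) in KO. Irf9 overlaps Rnf31 on the same strand, so that reads in the shared stretch could belong to either gene. Stat2, its partner in ISGF3, had 0.33 (SE 0.13, adjusted p = 0.126) in WT and −0.03 in KO, and Irf7, the factor that amplifies interferon alpha production, had 0.36 (SE 0.16, adjusted p = 0.164) and −0.01.

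Among the proteins that act on foreign RNA, Ifit3 (ENSMUSG00000074896.3, chr19:34583531-34588731) encodes a partner of the cap-binding IFIT1. Its level was 1.94, 3.29, 2.40, 3.04 and 2.43 CPM in WT under vehicle and 3.18, 2.78, 4.70, 4.80 and 5.38 CPM in WT under isoproterenol. Without OGFOD1 it was 3.54, 3.02, 2.49, 3.94 and 2.87 CPM under vehicle and 4.54, 4.70, 4.96, 3.86 and 3.28 CPM under isoproterenol. In both genotypes 3 of 5 isoproterenol libraries lay above every vehicle library, and the groups overlapped. Ifit3 rose by 0.68 (SE 0.18, edgeR adjusted p = 0.0142) in WT, and in KO it had 0.42 (SE 0.17, adjusted p = 0.133). Of the 50-base stretches of Ifit3 transcripts, 51.2% also occur in Ifit3b, so that reads may have been split between them or dropped. Ifit3b had 0.56 (SE 0.32) in WT and 0.62 (SE 0.31) in KO, from 9 to 48 counts per library.

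Ifit1, which holds viral RNA that lacks cap methylation, was at 1.84, 2.24, 1.97, 2.27 and 1.57 CPM in WT under vehicle and 3.18, 2.48, 2.55, 3.30 and 2.44 CPM in WT under isoproterenol. All 5 isoproterenol libraries lay above all 5 vehicle libraries, yet its log2 fold change of 0.52 (SE 0.17, edgeR adjusted p = 0.0515) did not pass. The KO level was 2.21, 2.34, 2.56, 2.41 and 2.50 CPM under vehicle and 1.90, 2.03, 2.95, 3.29 and 1.77 CPM under isoproterenol, with no separation (−0.02, SE 0.17). Ifit1 and Ifi44 were the genes whose WT groups did not overlap, 2 of 36, against 4.29% of all genes. Xaf1 was the single such gene in KO, against 3.75% of all genes. Ifit2 had 0.13 in WT and −0.07 in KO.

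The oligoadenylate synthetases make the messenger that activates RNase L. Oas1a had a WT log2 fold change of 0.82 (SE 0.31, edgeR adjusted p = 0.105) on 3 to 42 counts per library, and 57.6% of its 50-base stretches occur in Oas1g as well. Oas2 had 0.36 and Oasl2, a related protein, 0.24 in WT, with 0.04 and 0.10 in KO. Oas3 lay between 0.154 and 0.762 CPM in all 20 libraries. Together with Ifit1, Ifit2, Ifit3 and Ifit3b, these made up the 7 tested genes that act on foreign RNA. All 7 were positive in WT, with a median of 0.52, and had a median of 0.10 in KO.

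ISG15 is a ubiquitin-like protein and USP18 removes it from its targets and also dampens IFNAR signalling. Isg15 ranged from 0.0578 to 0.511 CPM over the 20 libraries, 95 counts in all, and no comparison was made. Usp18 was at 0.969, 1.26, 1.16, 1.18 and 1.03 CPM in WT under vehicle and 2.31, 1.16, 1.25, 1.90 and 1.89 CPM in WT under isoproterenol. In KO hearts it was 1.62, 0.942, 1.15, 1.48 and 1.63 CPM under vehicle and 0.848, 1.02, 0.982, 1.76 and 1.01 CPM under isoproterenol. In WT 3 of the isoproterenol libraries lay above all vehicle libraries, and in KO 4 of 5 isoproterenol libraries lay below all vehicle libraries but replicate 2. The log2 fold changes were 0.60 (SE 0.23, edgeR adjusted p = 0.0966) in WT and −0.31 (SE 0.23, adjusted p = 0.461) in KO, the widest gap of the 36 genes.

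**Figure D2:**
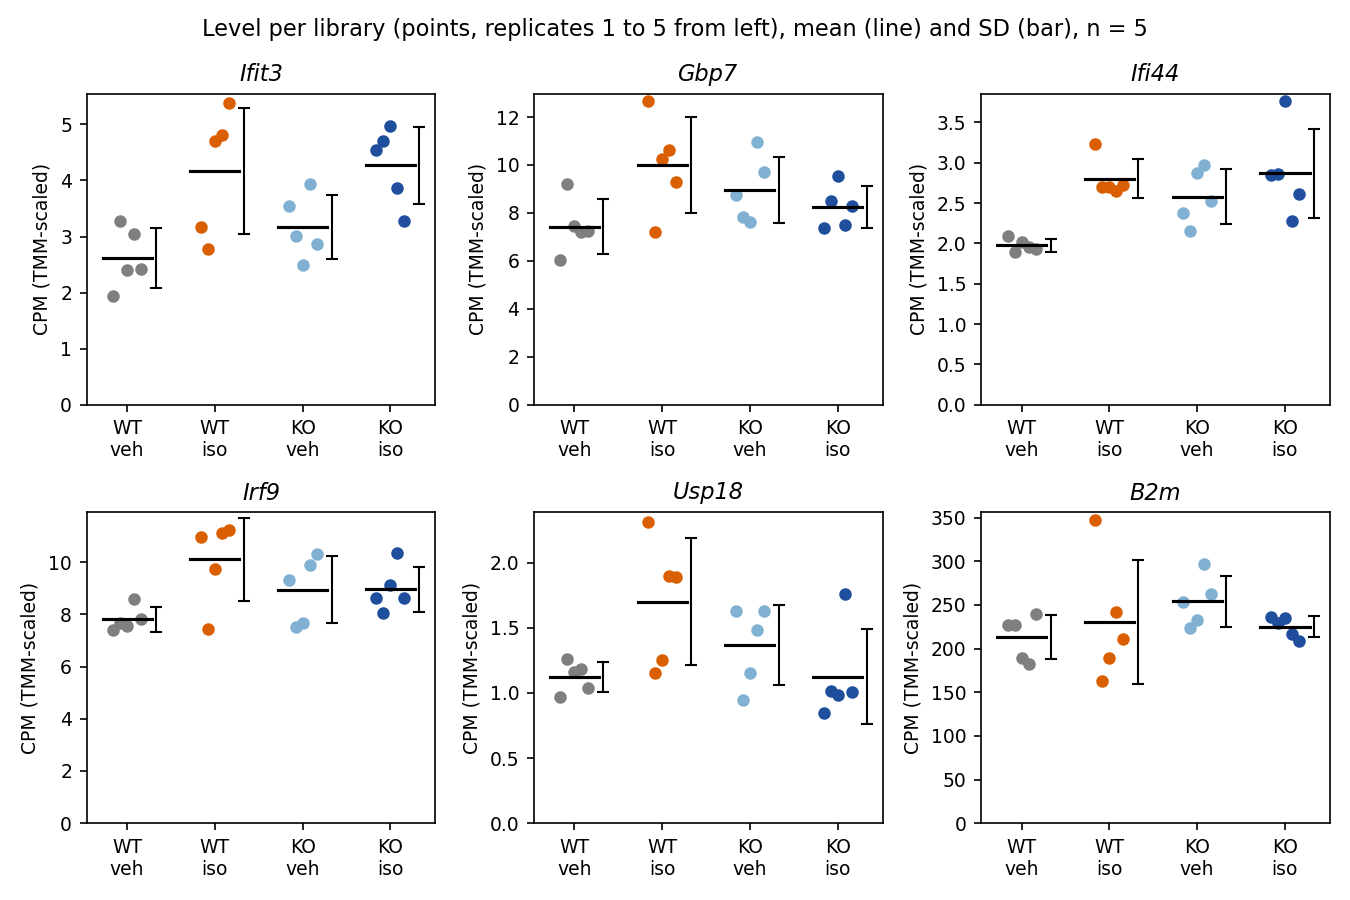
CPM per library (y axis, from 0) of 6 genes in the 4 groups (x axis), with points for replicates 1 to 5 from left to right, a line for the mean and a bar for the SD. Ifi44 is separated between the WT groups, from 1.89 to 2.09 CPM under vehicle and from 2.65 to 3.23 CPM under isoproterenol, while B2m overlaps in all groups.

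Of the sensors, Ddx58 encodes RIG-I, which detects triphosphate RNA ends. Its level was 8.47, 10.5, 9.01, 8.19 and 9.04 CPM in WT under vehicle and 13.1, 10.2, 10.7, 11.1 and 9.36 CPM in WT under isoproterenol. KO hearts held 11.0, 9.54, 10.4, 11.2 and 10.3 CPM under vehicle and 10.9, 11.7, 11.2, 11.3 and 12.1 CPM under isoproterenol. The KO isoproterenol libraries were the highest group, 4 of 5 lying above every KO vehicle library, and the WT vehicle libraries were the lowest group. Ddx58 rose by 0.20 (SE 0.06, edgeR adjusted p = 0.0228) on average over the genotypes, and had 0.27 (SE 0.09, adjusted p = 0.0503) in WT and 0.13 (SE 0.09) in KO.

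Ddx60, a helicase described as a helper of RIG-I, was at 2.45, 2.45, 2.17, 2.99 and 2.38 CPM in WT under vehicle and 3.52, 2.95, 3.20, 3.63 and 2.52 CPM in WT under isoproterenol. Without OGFOD1 it was 3.00, 2.41, 2.81, 2.73 and 3.23 CPM under vehicle and 3.69, 3.49, 3.49, 2.95 and 2.65 CPM under isoproterenol. In each genotype 3 of 5 isoproterenol libraries exceeded every vehicle library. Its average rise was 0.28 (SE 0.10, edgeR adjusted p = 0.0484), a call that was lost in 20 of 29 alternatives. Ifih1, which encodes the long-RNA sensor MDA5, had 0.08 in WT and −0.01 in KO. Zbp1, a sensor of Z-form nucleic acid that can start necroptosis, had 0.76 (SE 0.43) and 0.53 (SE 0.42), on 4 to 33 counts per library.

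Of the remaining effectors, Ifi44 (ENSMUSG00000028037.13, chr3:151730922-151749960) is an interferon-induced gene with a role in limiting viral replication. Its level was 2.09, 1.89, 2.01, 1.96 and 1.93 CPM in WT under vehicle and 3.23, 2.70, 2.70, 2.65 and 2.73 CPM in WT under isoproterenol. The KO level was 2.38, 2.15, 2.88, 2.97 and 2.52 CPM under vehicle and 2.84, 2.86, 3.76, 2.27 and 2.61 CPM under isoproterenol. The WT vehicle libraries were close together and lay below every library of the other 3 groups. Ifi44 rose by 0.49 (SE 0.15, edgeR adjusted p = 0.0325) in WT and had 0.16 (SE 0.14, adjusted p = 0.54) in KO.

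Xaf1, which binds the apoptosis inhibitor XIAP, was at 5.05, 5.38, 4.37, 5.30 and 4.05 CPM in WT under vehicle and 7.16, 4.32, 4.65, 5.60 and 5.94 CPM in WT under isoproterenol. In KO hearts it was 4.08, 3.62, 4.80, 4.82 and 4.37 CPM under vehicle and 5.29, 5.71, 6.27, 5.17 and 4.88 CPM under isoproterenol. Here it was KO in which every isoproterenol library lay above every vehicle library. Its log2 fold change was 0.34 (SE 0.13, edgeR adjusted p = 0.104) in KO and 0.20 (SE 0.13) in WT, and on average it rose by 0.27 (adjusted p = 0.0400).

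Trim30a, a negative regulator of Toll-like receptor signalling, was at 6.58, 6.92, 6.07, 6.02 and 6.03 CPM in WT under vehicle and 9.07, 6.04, 7.66, 9.07 and 7.47 CPM in WT under isoproterenol. KO hearts held 7.58, 6.37, 6.39, 5.79 and 7.31 CPM under vehicle and 6.98, 8.06, 8.67, 8.01 and 6.48 CPM under isoproterenol. The isoproterenol libraries above every vehicle library numbered 4 in WT and 3 in KO. It rose on average by 0.25 (SE 0.08, edgeR adjusted p = 0.0247). Rsad2 (viperin), Rtp4, Ifi35, Ifi27 and Bst2 (tetherin) had WT log2 fold changes from −0.04 (Bst2) to 0.24 (Rtp4), and none passed in any comparison. Ifi27 reached 12.5 CPM in KO isoproterenol replicate 5, the library with high fibroblast markers, and 4.79 to 7.15 CPM in the other libraries of that group.

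PARP9 and DTX3L form an ADP-ribosylating ubiquitin ligase, and PARP14 is a related transferase. Parp9 was at 7.96, 8.11, 7.00, 7.77 and 7.19 CPM in WT under vehicle and 10.7, 7.66, 8.71, 9.89 and 9.71 CPM in WT under isoproterenol. Without OGFOD1 it was 8.00, 6.97, 9.02, 8.16 and 8.92 CPM under vehicle and 9.23, 8.32, 8.89, 7.72 and 9.81 CPM under isoproterenol. In WT 4 of 5 isoproterenol libraries lay above the vehicle range. It rose on average by 0.20 (SE 0.07, edgeR adjusted p = 0.0415), with 0.30 (SE 0.10, adjusted p = 0.0552) in WT and 0.10 in KO. The annotated 5′ ends of Dtx3l and Parp9 overlap by 681 bases on opposite strands. Dtx3l had 0.05 in WT and −0.21 (SE 0.11) in KO, and Parp14 0.29 (SE 0.12) and −0.08.

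Guanylate-binding proteins coat and break open vacuoles that hold microbes. Gbp7 (ENSMUSG00000040253.15, chr3:142530342-142550149) was at 6.02, 9.22, 7.47, 7.21 and 7.24 CPM in WT under vehicle and 12.7, 7.19, 10.3, 10.6 and 9.29 CPM in WT under isoproterenol. The KO level was 8.75, 7.84, 7.61, 10.9 and 9.71 CPM under vehicle and 7.38, 8.51, 9.55, 7.50 and 8.29 CPM under isoproterenol. In WT 4 of 5 isoproterenol libraries lay above the vehicle range, whereas in KO none did. Gbp7 rose by 0.43 (SE 0.13, edgeR adjusted p = 0.0311) in WT and had −0.13 (SE 0.13, adjusted p = 0.603) in KO. Gbp3 had 0.42 (SE 0.15, adjusted p = 0.0703) and −0.09, and Gbp2 0.31 (SE 0.15, adjusted p = 0.203) and −0.18. All 3 genes were positive in WT and negative in KO, as were the 3 transcription factors, although no difference between genotypes passed. They belong to a cluster of such genes on chromosome 3.

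None of the 3 immunoproteasome subunits, which favour peptides that fit class I molecules, passed in any comparison. Psmb10 was at 10.8, 10.2, 10.3, 10.0 and 12.0 CPM in WT under vehicle and 9.59, 8.01, 10.8, 9.44 and 11.7 CPM in WT under isoproterenol. In KO hearts it was 10.9, 11.1, 10.6, 10.9 and 9.52 CPM under vehicle and 8.53, 9.27, 9.71, 10.1 and 7.96 CPM under isoproterenol. The KO isoproterenol libraries held the low end and the groups overlapped. Its log2 fold change was −0.22 (SE 0.09, edgeR adjusted p = 0.152) in KO and −0.12 in WT, which made it and Bst2 the 2 genes negative in WT. Psmb8 and Psmb9 had 0.26 and 0.16 in WT and 0.05 and −0.04 in KO. Their 8 constitutive proteasome counterparts gave no call in either genotype (medians 0.02 and −0.07).

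For class I presentation, B2m was at 227, 227, 189, 183 and 240 CPM in WT under vehicle and 347, 163, 189, 242 and 212 CPM in WT under isoproterenol. KO hearts held 253, 224, 232, 297 and 263 CPM under vehicle and 236, 230, 235, 217 and 208 CPM under isoproterenol. A single library, WT isoproterenol replicate 1, was the highest of all 20, and replicate 2 of the same group was the lowest. Its log2 fold changes were 0.11 (SE 0.15) in WT and −0.17 (SE 0.15) in KO, with edgeR adjusted p of 0.713 and 0.542. H2-D1 had 0.24 (SE 0.09, adjusted p = 0.103) and 0.05, and H2-K1 0.11 and −0.09. Tap1, the peptide transporter subunit, had 0.40 (SE 0.15, adjusted p = 0.0944) and 0.01. Part of the H2 sequence is shared with other class I genes (12.8% of the 50-base stretches of H2-D1 and 9.63% of those of H2-K1). Annotated 5′ ends of Tap1 and Psmb9 overlap by 211 bases on opposite strands.

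**Figure D3:**
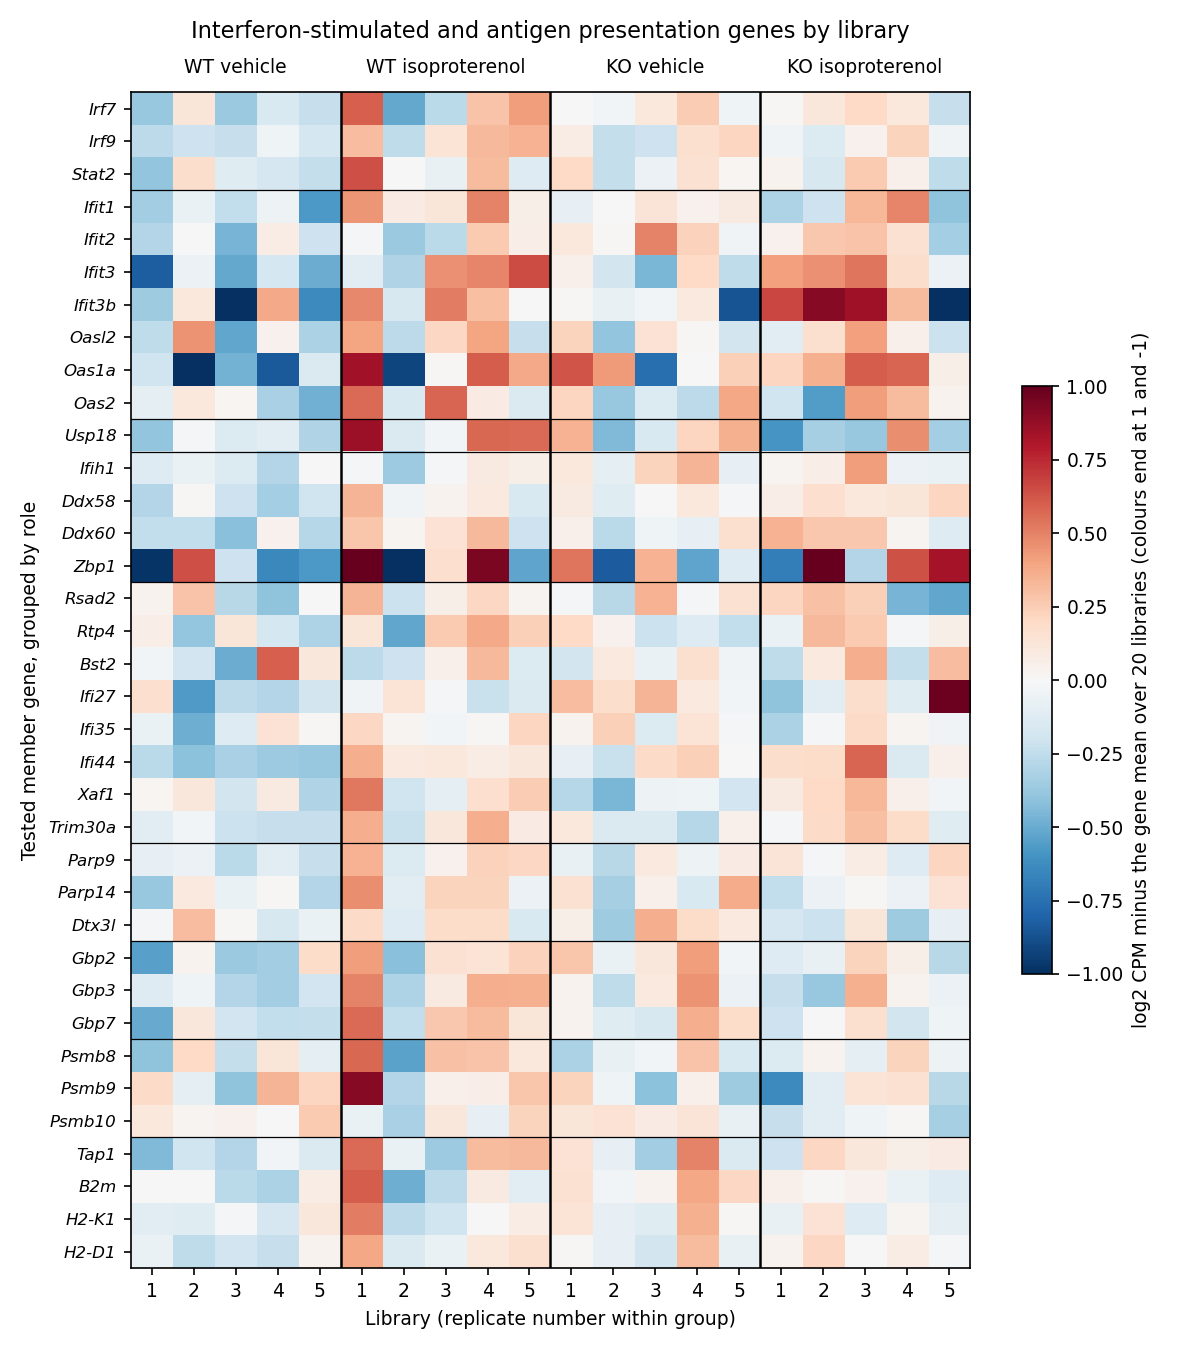
Log2 CPM minus the mean of the gene over 20 libraries (colour, red higher and blue lower, ending at 1 and −1), for 36 genes (rows, grouped by role) in 20 libraries (columns, by group and replicate). WT isoproterenol replicate 1 is the reddest column, highest of its group in 23 genes, and replicate 2 of that group is lowest in 26.

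Genotype was compared at each treatment. Under vehicle no gene of the 36 passed, against 0.128% of all genes, while 32 of 36 were higher in KO, with a median of 0.18 against 0.003 over all genes. At an unadjusted p under 0.05 there were 7 (Ifi44, Ifit2, Ddx58, Oas1a, Gbp2, Gbp7 and Ifih1), all higher in KO, against 4.06% of all genes. Under isoproterenol no gene passed, against 0.181% of all genes, and 10 of 36 were higher in KO, with a median of −0.08. Usp18 (−0.60, SE 0.23) and Gbp7 (−0.28, SE 0.13) were lower in KO at an unadjusted p under 0.05, against 5.79% of all genes.

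Averaged over treatments no gene passed, against 0.383% of all genes higher in KO. The 4 genes higher in KO at an unadjusted p under 0.05, against 6.59% of all genes, were Ifit2 (0.23), Ifi27 (0.32), Ddx58 (0.14) and Ifih1 (0.17). The WT vehicle libraries entered both the WT isoproterenol comparison and the vehicle genotype comparison. For Ifi44 these gave 0.49 and 0.37, for Gbp7 0.43 and 0.28, and for Ddx58 0.27 and 0.22, values that are not independent of each other.

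The mean deviation of the 36 genes from their own means summarised each library. It was −0.21, −0.06, −0.26, −0.13 and −0.17 in WT vehicle and 0.39, −0.24, 0.07, 0.24 and 0.10 in WT isoproterenol. In KO it was 0.09, −0.14, −0.01, 0.12 and −0.01 under vehicle and −0.07, 0.08, 0.20, 0.07 and −0.06 under isoproterenol. WT vehicle was the lowest group and WT isoproterenol the most spread, with SDs of 0.0772 and 0.234. The KO groups lay between them and overlapped each other.

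**Figure D4:**
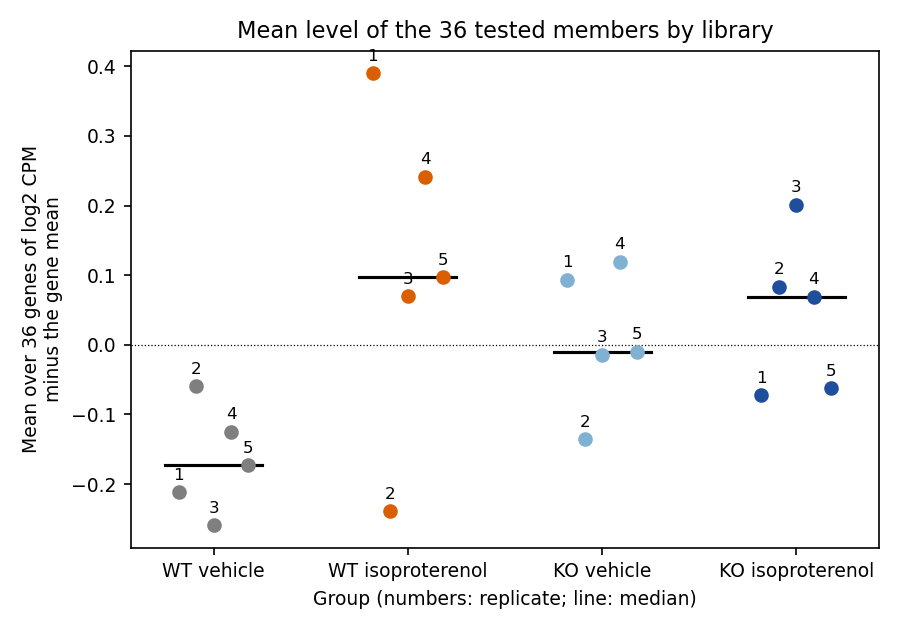
Mean over the 36 tested genes of log2 CPM minus the gene mean (y axis) for each library in the 4 groups (x axis), with numbers for replicates and a line for the group median. WT isoproterenol runs from −0.24 (replicate 2) to 0.39 (replicate 1), and all WT vehicle libraries lie below 0.

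Between libraries of the same group the genes moved together. Over the 630 pairs the median Pearson correlation of deviations from the group means was 0.33 across the 20 libraries, against 0.00 for pairs of all tested genes. B2m, H2-K1 and H2-D1 were correlated at 0.80 to 0.94. Gbp2, Gbp3 and Gbp7 had a median of 0.71. Psmb9 and Tap1, which share a start region, had 0.65, and Dtx3l and Parp9 0.62. Such values were not particular to these pairs. Genes on different chromosomes reached them as well, such as Psmb9 and Ifi35 (0.65) and Dtx3l and Oasl2 (0.67). Irf7 followed the other members most closely (median 0.53), and Ifi27 went against them (−0.19). These values describe genes that, within each library, share its depth and scaling. Without WT isoproterenol replicates 1 and 2, left out after seeing the data, the median over the 630 pairs was 0.18 and the class I values were 0.61 to 0.93.

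Markers of other cells moved with isoproterenol as well. For comparison, 4.64% of all genes rose and 4.12% fell in WT, and 4.75% and 4.29% did in KO. Of 14 macrophage markers 5 rose in WT (among them Mrc1, 0.52, and C1qb, 0.37) and 2 in KO. Of 7 pan-leukocyte markers 5 rose in WT (Itgb2, 0.71, and Coro1a, 0.76) and 1 in KO. The defining markers Ptprc (0.48 in WT, 0.28 in KO) and Adgre1 (0.58 and 0.15) did not pass. The macrophage sum was 206 to 245 CPM in WT vehicle, 226 to 348 in WT isoproterenol, 236 to 257 in KO vehicle and 271 to 307 in KO isoproterenol. The pan-leukocyte sums were 22.9 to 29.9, 29.9 to 62.8, 25.6 to 30.6 and 32.7 to 40.5 CPM. Fibroblast sums were, in the same order, 518.0 to 631.6, 717.6 to 879.5, 548.0 to 659.9 and 733.7 to 1992 CPM. Those of smooth muscle and pericyte markers were 598.1 to 692.0, 710.1 to 812.9, 647.7 to 763.0 and 737.7 to 1734 CPM. Cardiomyocyte sums were 29770 to 34800, 25890 to 28260, 28250 to 30370 and 21220 to 27880 CPM. KO isoproterenol replicate 5 alone set the ends of 1992, 1734 and 21220 CPM. The rest of its group held at most 949, at most 775 and at least 25960 CPM in turn. Of 8 endothelial markers 3 rose in WT (Pecam1, Emcn and Cdh5) and 1 fell in KO. Of the T cell and B cell markers, Cd3e had at most 6 counts and Cd79a at most 14, each at 0 in 3 libraries. Others were counted in every library: Cd4 (at most 26 counts), Trac (19), Il2rb (20), Cd79b (16) and Ighm, which reached 1213 counts. Fewer cells of a type and less RNA per cell cannot be told apart in whole heart RNA, and the part of these cells in the results was not tested.

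Within groups, the mean of the 36 genes and that of the macrophage markers were correlated at r = 0.65 (Spearman rho = 0.29, n = 20 libraries), and for the pan-leukocyte markers at r = 0.60 (rho = 0.22). Both rested on the libraries farthest from the middle: without WT isoproterenol replicates 1 and 2 the values of r were 0.002 and 0.01 (n = 18). The other marker lists with at least 2 tested genes ran from r = −0.42 (erythroid and platelet) to 0.35 (T and NK cell). With the same 2 libraries left out they ran from −0.53 (erythroid and platelet) to 0.12 (monocyte and recruited myeloid). Without these 2 libraries 3 of the 4 WT calls stood (Irf9, Ifit3 and Gbp7), and the WT median was 0.32. Of all genes 3.61% were then higher in WT, against 4.64% with all libraries. Whether the WT calls depended on the amount of macrophages or other leukocytes was not tested.

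**Figure D5:**
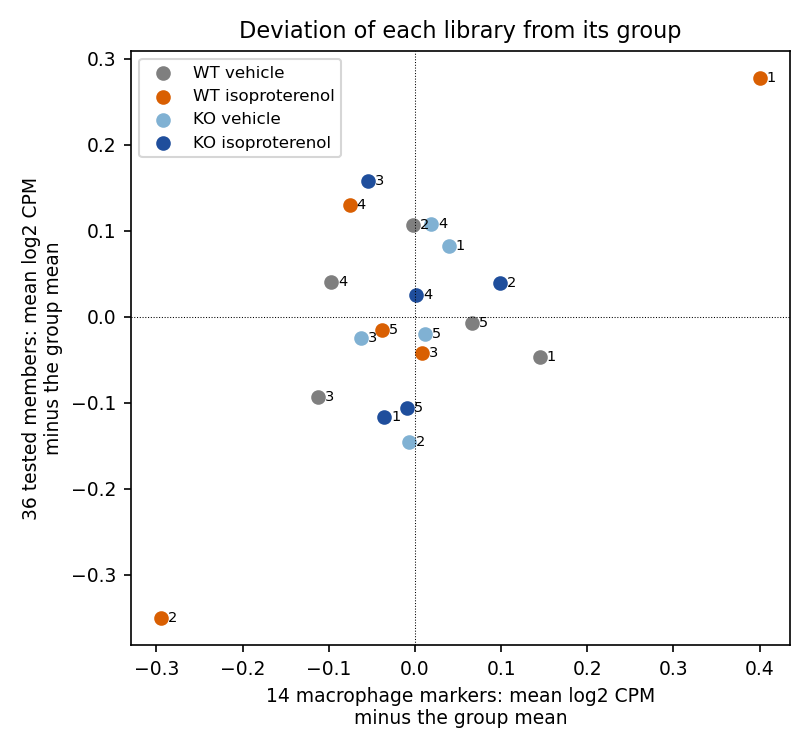
Mean log2 CPM minus the group mean of 14 macrophage markers (x axis) and of the 36 tested genes (y axis), 1 point per library, coloured by group and numbered by replicate. WT isoproterenol replicates 1 and 2 sit at opposite corners and r over the other 18 libraries is 0.002.

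Upstream of these genes, none of the 10 interferon genes looked up had a measurable transcript. Of these 10 genes 9 had no count in any library and Ifng had 2 counts in total, so that the depth does not show whether interferon RNA was present at a lower level. Other interferon genes were not looked up. Of 20 tested genes for receptors, kinases, STATs and other factors, 3 rose and 1 fell in WT, against 4.64% and 4.12% of all genes. Stat3 (0.30, SE 0.05), Socs3 (0.68, SE 0.18), a feedback inhibitor of cytokine signalling, and Jak2 (0.21, SE 0.07) rose, and the interferon gamma receptor chain Ifngr2 fell by 0.43 (SE 0.06). The call of Jak2 was lost in 18 of 30 alternatives, whereas those of Stat3 and Ifngr2 were kept in all 30. In KO 3 rose (Socs3 0.93, Irf5 0.55, Ifngr1 0.22) and 2 fell (Ifngr2 by 0.55, Il10rb by 0.29). The shares over all genes in KO were 4.75% and 4.29%. Of 16 tested genes for nucleic acid sensing none changed in WT, and in KO Ikbke rose (0.61) while Mavs (−0.28) and Ticam1 (−0.44) fell. The listed Mb21d1, named Cgas in GENCODE vM21, was not matched by symbol and was not looked at. Trex1 had no count in any library. Rnaseh2b, a subunit of RNase H2, was higher in KO on average over treatments (0.44, SE 0.10, edgeR adjusted p = 0.0246), a call kept in 27 of 29 alternatives.

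Of 44 other interferon-stimulated genes 13 rose in WT and 4 in KO, against 4.64% and 4.75% of all genes, and none fell. Their medians were 0.23 and 0.13, against 0.004 and 0.01 over all genes. Lgals3bp had 0.61 (SE 0.08) and 0.47 (SE 0.08) and passed in both, as did Ifitm3, with 0.32 and 0.28. Ly6a had 0.49 in WT and 0.15 in KO, and Mndal 0.49 and 0.14. Ifitm3, which blocks entry of viruses into cells, was also higher in KO on average (0.26, SE 0.05, edgeR adjusted p = 0.00700). Of 13 GTPases induced by interferon gamma, Gbp9 (0.45, SE 0.11) and Ifi47 (1.07, SE 0.30) rose in WT and none rose in KO, with medians of 0.44 and −0.08.

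In the rest of the class I pathway, 17 genes tested, 2 fell in WT and 3 in KO, against 4.12% and 4.29% of all genes. Canx and Calr, the chaperones calnexin and calreticulin, fell in both genotypes, by 0.27 and 0.24 in WT and by 0.38 and 0.40 in KO, and Erap1, which trims peptides, fell in KO, a call lost in 12 of 30 alternatives. None of 8 tested class II genes passed in either genotype. The lists overlap in function with the 38 genes and were read from the same fit.

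Some of the calls in WT were lost when 1 library was left out, and the share of all genes that rose changed too. The count of 4 became 0 without WT isoproterenol replicate 4. It became 1 without WT isoproterenol replicate 1 or WT vehicle replicate 3 or 5, where 3.81%, 3.48% and 3.66% of all genes were higher. Without WT vehicle replicate 1 or 4 or WT isoproterenol replicate 3 it became 2, with 3.99%, 3.09% and 3.28%. The count became 12 without WT isoproterenol replicate 2, where 4.29% of all genes were higher, and 7 without KO isoproterenol replicate 5, where 6.00% were, against 4.64% with all libraries. Without WT isoproterenol replicate 4 the share over all genes was 3.21%. DESeq2 called 7 (5.18% of all genes higher) and limma-voom with quality weights 10 (6.35%). Ifit3 kept its call in 29 of 30 alternatives and missed it only without WT isoproterenol replicate 4 (edgeR adjusted p = 0.0566). Gbp7 kept its call in 23, Irf9 in 22 and Ifi44 in 20 of 30. For the average over genotypes, Ifit3 kept its call in 29 of 29 alternatives, Ddx58 and Ifi44 in 26, and Trim30a in 25. Xaf1 kept it in 17, Parp9 in 14 and Ddx60 in 9 of 29.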

How the data were processed

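Total RNA from powdered heart was made into stranded libraries, per the labels' protocols. The values are raw counts per gene as deposited by the authors, with HISAT2 2.1.0, featureCounts 1.6.3 and build GRCm38 among the tools and builds in the submitters' processing notes. Which annotation release and strand option were used, and what was done with multi-mapping reads, is not given in the sources used here, so values of overlapping and near-identical genes are uncertain. Of the 55335 IDs, 55154 were found in GENCODE vM21, 54587 of them with the same version.

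The 38 members and all lists were chosen with earlier results of these data known, so none of their directions is independent evidence. Counts of all 20 libraries, 5 in each of 4 groups taken from the labels, were fitted in R 4.3.3 with edgeR 4.0.16: filterByExpr, TMM scaling, a mean per group and robust quasi-likelihood F tests with 16 residual degrees of freedom (common biological coefficient of variation 0.119). Benjamini-Hochberg adjustment ran over the 14878 genes tested, and calls were made at 0.05. Fold changes are log2 values with their standard error (SE). Total counts of 14609808 to 43671055 per library, mostly mitochondrial, limit the precision of genes with few counts. The procedure was tested on simulated data. Correlations used log2 CPM and carry no p. Alternatives were DESeq2 1.42.0, limma-voom (limma 3.58.1), other scalings and filters, removal of mitochondrial genes, a fit of the groups compared alone, and leaving out libraries. All 38 members are named, with values by library for those that passed and at least 1 per role; of each list, up to 4 genes that passed per comparison by smallest p, and defining markers. Values by library of Ifit1 were chosen after its values were seen. An item withheld from this account is not reported here. Plots were made in Python 3.11.15 using matplotlib 3.10.9.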

Additional observations from a re-analysis of the deposited data

Results flagged for a closer look

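Of 144 sets of 5 libraries (36 genes in 4 groups) 7 held a library far from the other 4 by the critical value of Dixon for 5 samples, in log2 CPM. Chance gives about 1 in 20, and 7 is close to that. Ifih1 was at 2.91 in WT isoproterenol replicate 2, against 3.26 to 3.37 in the others, and at 3.69 in KO isoproterenol replicate 3, against 3.21 to 3.34. Rtp4 was at 1.36 in WT isoproterenol replicate 2, against 1.99 to 2.23. Ifi44 was at 1.73 in WT isoproterenol replicate 1, against 1.45 to 1.49. Ifit3b was at −0.76 in KO vehicle replicate 5, against −0.06 to 0.09, and Psmb10 at 3.26 in the same library, against 3.42 to 3.48. Usp18 was at 0.89 in KO isoproterenol replicate 4, against −0.09 to 0.15.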

How the results depend on the processing

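In up to 10 alternatives of method or samples and 20 that each left out 1 library, the median of the 36 genes kept its sign for isoproterenol in WT (0.21 to 0.37), for KO against WT under vehicle (0.15 to 0.25) and under isoproterenol (−0.15 to −0.02), and for the difference between responses (−0.31 to −0.15). The KO response median ran from −0.03 to 0.06. Genes higher in WT numbered 4, and 9 with no filter on low counts (2.42% of all genes tested were then higher), 7 with DESeq2 (5.18%), 10 with limma-voom (6.35%), 8 with KO isoproterenol replicate 5 and WT vehicle replicate 2 both left out (5.09%), and 0 to 12 when 1 library was left out (3.09% to 6.00%). Higher in KO were 0, and 1 (Ifit3b) without those 2 libraries together (4.48% of all genes higher). When 1 library was left out there were 0 to 1 (3.47% to 5.02%). On average over genotypes 7 were higher (9.76% of all genes), and 3 with no filter (4.5%). With 1 library left out 2 to 9 were (8.25% to 9.91%), fewest without WT isoproterenol replicate 1 or KO isoproterenol replicate 3. Lower were 0, and 0 to 1 with 1 library left out (Psmb10 without WT isoproterenol replicate 5, where 9.01% of all genes were lower). For KO against WT on average 0 were higher, and 1 (Ifi27) with no filter (0.547% of all genes). The cause was not tested. Leaving out WT isoproterenol replicates 1 and 2 together was added after seeing the data. No paired analysis was possible because the labels give the libraries no replicate numbers that the groups share.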
